A study of Homo sapiens with 12 samples.

Results

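What teriflunomide added when lurbinectedin was already present was measured in spheroids of SBC3, an established human small cell lung cancer cell line, by sequencing polyadenylated RNA. The comparison rests on 6 of the 12 libraries of the series, chosen by their treatment label: 3 from spheroids given lurbinectedin alone and 3 from spheroids given teriflunomide together with lurbinectedin, called the combination below. The other 6 libraries are 3 untreated controls and 3 with teriflunomide alone; they are used here for the shared estimate of spread and to set the effect of teriflunomide without lurbinectedin beside its effect with it. All 4 groups share the same cell line and culture form, no group carries a genetic change, and the labels used here give neither doses nor exposure times. SBC3 is 1 line, and nothing in the labels says that the libraries of a group came from separate cultures, so the p-values measure only the spread between these libraries, which may be technical.

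Teriflunomide inhibits dihydroorotate dehydrogenase, the product of DHODH, an enzyme of the inner mitochondrial membrane that carries out the step of pyrimidine synthesis coupled to the respiratory chain. Pyrimidine nucleotides are needed for RNA, for DNA and for activated sugars, and a shortage of them is known to slow ribosomal RNA synthesis and to stabilise p53. Lurbinectedin binds guanines in the minor groove of DNA, stalls transcribing RNA polymerase II and leads to its degradation and to DNA breaks.

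Total counts were between 23206414 and 28819484 in the lurbinectedin libraries and between 27388212 and 29207897 in the combination libraries. Replicates were close, with Pearson correlations of log2 CPM of 0.992 to 0.993 among lurbinectedin libraries, 0.986 to 0.990 among combination libraries and 0.983 to 0.992 between the groups; CPM is a gene's count relative to the library total, scaled for library composition. The first principal component of these 6 libraries took 35.9% of the variance, with all lurbinectedin libraries on one side (8.89 to 35.6) and all combination libraries on the other (-5.01 to -37.1). A pair of libraries stood apart. Combination replicate 2 had 24.9% of its counts on the mitochondrial genome against 14.6% and 13.1% in replicates 1 and 3, and teriflunomide replicate 3 had 22.6% against 8.42% and 8.43% in the other teriflunomide libraries; results that rest on them are given with and without them. Of the markers of the labelled cell type, INSM1, NCAM1 and UCHL1 were at or near 0 in all 6 libraries, YAP1 was at 64.8 CPM with lurbinectedin alone and 97.2 CPM with the combination, and SYP was at 30.9 and 34.1 CPM. Markers of immune and endothelial cells summed to at most 2.58 and 0.128 CPM in any of the 6 libraries. COL1A1 and COL1A2, which fibroblasts also express, lay between 89.8 and 123 CPM, while DCN and LUM were at or near 0.

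Ribosomal protein genes, nuclear genes of mitochondrial energy production and genes of pyrimidine and purine synthesis had lower estimates in the combination than with lurbinectedin alone, with group medians of the log2 fold change between -0.21 and -0.38. Long genes had higher estimates, with a median of 0.27 in the longest of 5 equal groups by genomic span. No single gene passed in the 12-library fit: of 16683 genes tested with edgeR's quasi-likelihood test, 0 had a Benjamini-Hochberg adjusted p under 0.05 (0.0%), and the smallest adjusted p was 0.145. At an unadjusted p under 0.05 there were 2599 genes (15.6%), of which 1636 were higher (9.81%) and 963 lower (5.77%). In 1857 genes (11.1%) all combination libraries lay above all lurbinectedin libraries, and in 2094 genes (12.6%) all lay below.

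The number of genes that passed differed widely between fits. Fitted on the 6 compared libraries alone, 94 of 15370 genes passed (0.612%), 14 higher (0.0911%) and 80 lower (0.52%). Leaving out teriflunomide replicate 3, a library outside the comparison, changed the estimate of spread, the genes tested and slightly the scaling, and gave 2067 of 17072 genes (12.1%), 1077 higher (6.31%) and 990 lower (5.8%). All 94 genes of the 6-library fit were among these 2067, with the same direction. Without combination replicate 2, 259 of 17043 genes passed (1.52%), 212 higher (1.24%) and 47 lower (0.276%); with that library left out of the 6-library fit, an alternative chosen after seeing the data, 1793 of 15736 did (11.4%), 908 higher (5.77%) and 885 lower (5.62%). DESeq2 on all 12 libraries called 584 of 11829 genes that received an adjusted p (4.94%), 421 higher (3.56%) and 163 lower (1.38%). Leaving out any one of the other 10 libraries gave 0. In what follows a gene is said to have passed only in a fit that is named, and these shares are the background for the counts in gene groups. The fit named most often below, without teriflunomide replicate 3, called the most genes of all fits planned beforehand and keeps combination replicate 2. In bulk RNA, fewer cells of a kind and less RNA per cell cannot be told apart.

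**Figure D1:**
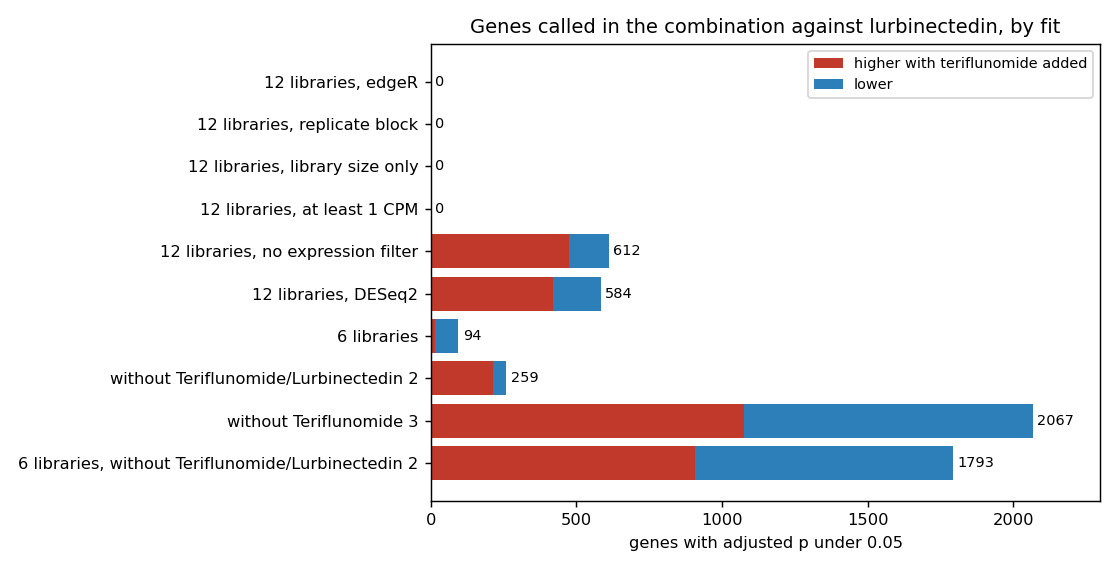
Genes with an adjusted p under 0.05 in the combination against lurbinectedin, by fit; bar length is the number of genes, red those higher and blue those lower in the combination. The count is 0 in the 12-library edgeR fit, 94 in the 6-library fit and 2067 without teriflunomide replicate 3.

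The genes that passed in all 4 of the 6-library fit, the fit without teriflunomide replicate 3, the fit without combination replicate 2 and DESeq2 numbered 15. The 8 lower ones were RABEPK, RPL27, PRDX4, RPL34, RPS27A, RPL31, TXN and RPL35A, of which 5 encode ribosomal proteins. The 7 higher ones were RIMKLB, ITGAV, AKAP12, PKN2, MPDZ, ADD3 and ATP2B4; AKAP12, PKN2 and MPDZ fall outside the rule for named genes and were chosen after their values were seen.

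Cytosolic ribosomal proteins, the structural proteins of the ribosome, were the most uniform group. All 85 tested genes had a lower estimate in the combination, against 7788 of all 16683 genes, and the median log2 fold change was -0.38 against 0.03 for all genes tested. In 70 of the 85 the groups did not overlap; 21 passed in the 6-library fit, 68 in the fit without teriflunomide replicate 3, 32 in DESeq2 and 15 without combination replicate 2, all of them lower. RPL27, a protein of the large subunit (chromosome 17, 42998273 to 43002959, hg38), was at 807, 705 and 702 CPM with lurbinectedin alone and at 493, 479 and 476 CPM with the combination. Its combination libraries lay closer together than its lurbinectedin libraries and far below them, a log2 fold change of -0.61 ± 0.10 (SE), with an adjusted p of 0.145 in the 12-library edgeR fit and 0.039 in the 6-library fit. For RPL34, also of the large subunit, the values were 341, 300 and 312 CPM against 211, 218 and 212 CPM, or -0.57 ± 0.09. RPL31 went from 848, 764 and 733 CPM to 545, 554 and 553 CPM, a difference of -0.50 ± 0.10. In RPS27A, which encodes a ubiquitin fused to a small-subunit protein, 1348, 1133 and 1163 CPM stood against 826, 906 and 828 CPM, or -0.51 ± 0.09. The groups did not overlap in any of these 4 genes, and each passed in the 6-library fit with an adjusted p between 0.039 and 0.0478.

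RPS13 was at 616, 569 and 554 CPM against 415, 406 and 395 CPM (-0.52 ± 0.11), RPL35A at 619, 546 and 568 CPM against 424, 439 and 420 CPM (-0.43 ± 0.09), and RPS25 at 884, 812 and 785 CPM against 609, 640 and 590 CPM (-0.43 ± 0.08). RPS21 had the largest difference of the named ribosomal genes, 251, 224 and 231 CPM against 139, 110 and 165 CPM, or -0.77 ± 0.19. Relative to their mean, its combination libraries were spread more widely than those of the other ribosomal genes named here, yet all lay below the lurbinectedin libraries. Ribosomal protein genes have many near-identical processed copies in the genome, and the treatment of reads that map to several places is not given in the sources used here, so the counts of single members are uncertain. The same holds for genes whose exons overlap another gene, such as RPL31, RPS27A, RPS25, POLR1C, ATP5MK, TWNK, SPIRE1, MIEF1 and C1RL, since the strand setting is not given either. The copy RPS27AP16 itself had 10.6, 6.92 and 7.56 CPM against 4.09, 4.97 and 4.53 CPM.

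Messenger RNAs of ribosomal proteins are known for a stretch of pyrimidines at their 5′ end, the terminal oligopyrimidine tract, through which their translation and stability respond to growth signals. The start regions of the 7 ribosomal genes with the smallest p are shown because they moved together; each runs from 60 bases before to 20 bases after the RefSeq gene start in GRCh38.p14, on the strand of the gene, and capitals mark the unbroken run of C and T letters that covers the start base.
RPL27: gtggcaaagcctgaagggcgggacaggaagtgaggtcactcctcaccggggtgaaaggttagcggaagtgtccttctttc
RPL34: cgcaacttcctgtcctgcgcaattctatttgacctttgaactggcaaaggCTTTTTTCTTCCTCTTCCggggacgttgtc
RPS27A: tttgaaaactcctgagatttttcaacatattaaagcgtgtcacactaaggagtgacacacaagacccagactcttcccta
RPL31: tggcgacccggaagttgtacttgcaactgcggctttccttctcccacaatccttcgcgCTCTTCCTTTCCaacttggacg
RPS25: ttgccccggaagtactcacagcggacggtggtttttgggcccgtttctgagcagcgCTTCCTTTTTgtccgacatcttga
RPL35A: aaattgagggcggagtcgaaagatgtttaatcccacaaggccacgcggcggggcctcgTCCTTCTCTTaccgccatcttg
RPS13: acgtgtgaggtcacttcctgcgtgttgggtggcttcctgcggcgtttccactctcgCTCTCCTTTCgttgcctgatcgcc

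These regions lie at chr17:42998359-42998438, chr4:108620516-108620595, chr2:55231843-55231922, chr2:101002229-101002308, chr11:119018324-119018403, chr3:197950130-197950209 and chr11:17077648-17077727 in that order, with RPS25 and RPS13 on the minus strand. The run over the start was 18 bases in RPL34, 12 in RPL31 and 10 in RPS25, RPL35A and RPS13; at the RefSeq starts of RPL27 and RPS27A the first base was neither C nor T. A run of at least 6 such letters over the start, read on the strand of the gene, was found in 45 of the 67 ribosomal protein genes, of 86 listed, that have an entry (67.2%) and in 2050 of 27305 promoters in all (7.51%). Among mitochondrial ribosomal proteins it was found in 4 of 67 (5.97%), among ATP synthase genes in 6 of 14 (42.9%), and among complex I genes in 1 of 32 (3.13%). The search describes letters at annotated starts, not sites in use in these cells.

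With lurbinectedin alone against control, 80 of the 85 ribosomal protein genes were called higher by edgeR, with a median log2 fold change of 0.71, and the levels in the combination were nearer to those of control. RPL27 averaged 491 ± 23.3 CPM (SD, n = 3) in control, 738 ± 59.7 with lurbinectedin and 483 ± 9.13 with the combination, and RPL34 222 ± 6.26, 318 ± 20.9 and 214 ± 3.95. RPS27A averaged 669 ± 28.4, 1214 ± 116 and 854 ± 45.6, so that it stayed above control. These 2 comparisons share the lurbinectedin libraries, so their opposite signs are not independent. Teriflunomide alone against control gave a median of -0.12 over the same 85 genes, and -0.03 without teriflunomide replicate 3. With all 12 libraries 1 of the 85 was called higher and 2 lower, against 647 and 355 of all 16683 genes.

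**Figure D2:**
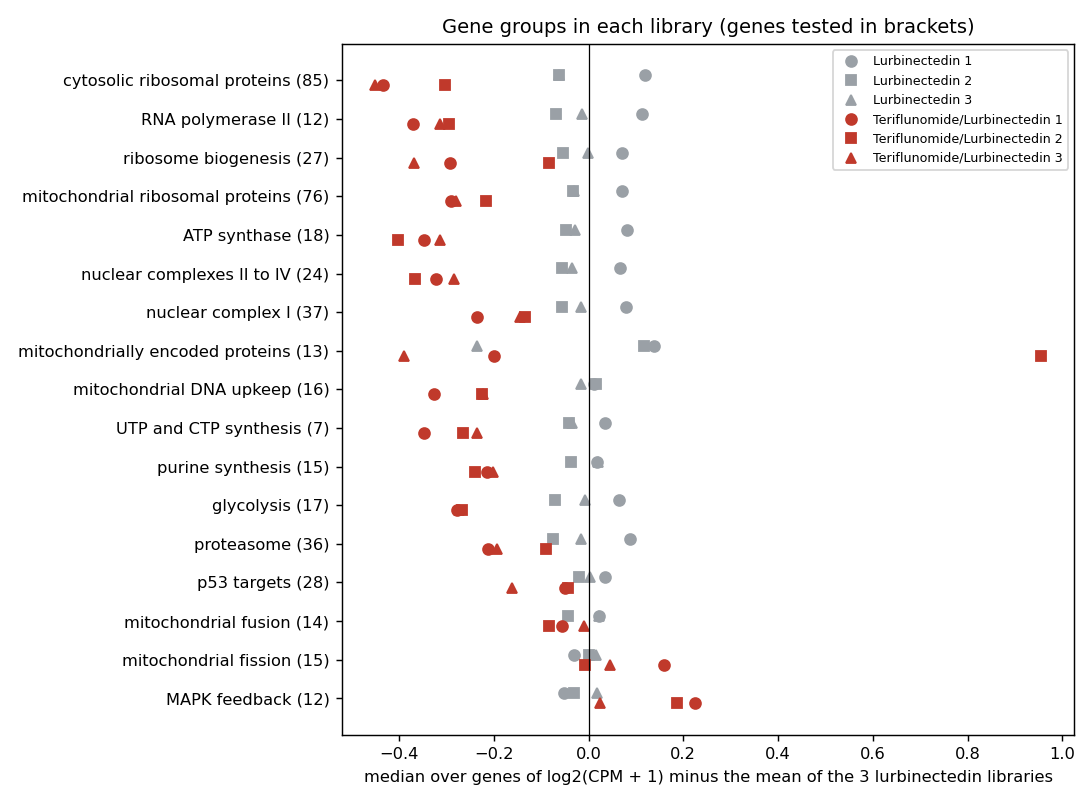
Median over the tested genes of each group (number in brackets) of log2(CPM + 1) minus the mean of the 3 lurbinectedin libraries, per library; grey symbols are lurbinectedin libraries, red the combination, and the shape gives the replicate. Ribosomal and energy-production groups lie left of 0 in all 3 combination libraries, while mitochondrially encoded genes lie at 0.96 in combination replicate 2 and at -0.20 and -0.39 in replicates 1 and 3.

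The machinery that makes ribosomes and messenger RNA was lower as well. All 27 tested ribosome biogenesis genes had a lower estimate, with a median of -0.28, and 10 passed in the fit without teriflunomide replicate 3. Per library, the median of this group was -0.29 and -0.37 in combination replicates 1 and 3 but -0.08 in replicate 2. POLR1A, the largest subunit of RNA polymerase I, was at 188, 181 and 200 CPM with lurbinectedin alone and 146, 141 and 148 CPM with the combination (-0.39 ± 0.10). POLR1B, its second-largest subunit, was at 114, 107 and 113 CPM against 92.4, 80.9 and 88.3 CPM (-0.36 ± 0.09). POLR1C, shared between RNA polymerases I and III, went from 144, 123 and 127 CPM to 81.3, 107 and 90.8 CPM (-0.50 ± 0.14), and UTP4, a component of the small-subunit processome, from 209, 187 and 200 CPM to 150, 163 and 159 CPM (-0.34 ± 0.09). All 4 passed in the fit without teriflunomide replicate 3, with adjusted p between 0.00476 and 0.00886, and none passed in the 6-library fit. Of 12 RNA polymerase II subunits, 11 were lower, with a median of -0.32 and 8 passing in the fit without teriflunomide replicate 3. POLR2L, a small subunit common to the nuclear polymerases, was at 128, 101 and 106 CPM against 73.3, 79.5 and 79.9 CPM (-0.52 ± 0.19) and passed in the 6-library fit (adjusted p = 0.0491). Teriflunomide alone against control gave medians of -0.31 for ribosome biogenesis and -0.30 for RNA polymerase II genes. Without teriflunomide replicate 3 they were -0.35 and -0.17.

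Nuclear genes of oxidative phosphorylation formed the next largest block. ATP synthase genes were lower in 18 of 18, with a median of -0.34, no overlap in 16 and 16 passing in the fit without teriflunomide replicate 3. ATP5ME, a membrane subunit of that enzyme, was at 51.6, 49.6 and 45.0 CPM with lurbinectedin alone and 32.7, 35.8 and 34.1 CPM with the combination (-0.51 ± 0.10). ATP5MK was at 53.7, 53.4 and 45.5 CPM against 37.1, 35.4 and 33.9 CPM (-0.52 ± 0.12), and ATP5F1E, the epsilon subunit, at 267, 240 and 236 CPM against 182, 182 and 200 CPM (-0.40 ± 0.10). In each of these 3 the highest combination library lay well under the lowest lurbinectedin library.

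Of 24 nuclear genes of complexes II to IV, 23 were lower (median -0.30), with no overlap in 19 and 14 passing without teriflunomide replicate 3. UQCRH, the hinge protein of complex III, was at 209, 196 and 190 CPM against 148, 149 and 148 CPM (-0.42 ± 0.09). UQCRQ, another complex III subunit, was at 83.0, 74.4 and 76.1 CPM against 51.4, 55.0 and 56.8 CPM (-0.52 ± 0.15) and passed in the 6-library fit (adjusted p = 0.0416). COX7A2, of complex IV, was at 107, 97.3 and 95.7 CPM against 73.9, 76.0 and 75.4 CPM (-0.41 ± 0.10). Complex I was less uniform: 30 of 37 nuclear genes were lower, with a median of -0.21 and 11 passing without teriflunomide replicate 3. Its accessory subunit NDUFB9, whose exons overlap genes on the other strand, stood at 179, 163 and 163 CPM against 122, 129 and 123 CPM (-0.43 ± 0.10), and NDUFAB1, the mitochondrial acyl carrier protein, at 62.7, 56.5 and 58.5 CPM against 41.0, 36.9 and 46.8 CPM (-0.51 ± 0.13). NDUFA4L2, a relative of a complex IV subunit that hypoxia is known to induce, was low throughout, at 7.27, 6.65 and 5.27 CPM against 3.22, 4.64 and 2.55 CPM (-0.89 ± 0.22). Its exons overlap SHMT2 on the other strand, a far more abundant gene that was also lower, so its own counts are uncertain. With teriflunomide alone against control the medians were -0.13 for ATP synthase, -0.13 for complexes II to IV and -0.08 for complex I. Without teriflunomide replicate 3 they were -0.07, 0.05 and 0.06.

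Mitochondrial ribosomal proteins, which build the ribosome inside the organelle, were lower in 71 of 76, with a median of -0.26, no overlap in 52 and 30 passing without teriflunomide replicate 3. MRPL21 was at 63.9, 57.4 and 57.0 CPM against 42.8, 41.6 and 44.0 CPM (-0.47 ± 0.12). MRPL36 was at 34.9, 28.5 and 31.9 CPM against 22.2, 25.7 and 21.5 CPM (-0.46 ± 0.12), and MRPS21 at 99.2, 96.1 and 94.2 CPM against 71.1, 81.3 and 73.0 CPM (-0.36 ± 0.09). Of 16 genes for the upkeep and expression of mitochondrial DNA, 15 were lower (median -0.24) and 7 passed without teriflunomide replicate 3. TFB2M, a mitochondrial transcription factor, was at 63.3, 56.7 and 59.2 CPM against 42.1, 48.7 and 42.5 CPM (-0.43 ± 0.11). For TWNK, the mitochondrial DNA helicase, 218, 178 and 195 CPM stood against 132, 178 and 121 CPM (-0.45 ± 0.13), so that combination replicate 2 overlapped the lurbinectedin group. Teriflunomide alone against control gave medians of -0.16 for mitochondrial ribosomal proteins and -0.26 for the upkeep genes. Without teriflunomide replicate 3 they were -0.09 and -0.19.

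Genes encoded by the mitochondrial genome differed in direction between the combination libraries, and the sign of their change depended on replicate 2. Their share of counts was 16.7%, 17.0% and 13.8% in the lurbinectedin libraries against 14.6%, 24.9% and 13.1% in those of the combination, a difference of 1.68 percentage points (exact two-sided permutation test, p = 0.9; 3 libraries against 3 cannot give less than 0.1). Without combination replicate 2 the difference was -2.02 percentage points. Over the 13 protein genes of that genome, the median was 0.23 on the log2 scale with that library and -0.29 without it, and none passed in any of those 4 fits.

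Pyrimidine synthesis, the pathway that teriflunomide blocks, was lower at 3 of its enzymes in all 3 libraries. DHODH itself was at 26.9, 23.5 and 24.2 CPM with lurbinectedin alone and 16.5, 20.5 and 19.7 CPM with the combination (-0.40 ± 0.12), passing without teriflunomide replicate 3 (adjusted p = 0.0226) and in DESeq2 (adjusted p = 0.0316) but not in the 6-library fit (0.117). CAD, which carries the first 3 activities of the pathway in 1 protein, was at 254, 248 and 265 CPM against 196, 175 and 224 CPM (-0.37 ± 0.17). UMPS, which completes UMP, was at 123, 114 and 120 CPM against 93.1, 92.9 and 90.5 CPM (-0.37 ± 0.12), and NME1, a nucleoside diphosphate kinase whose exons are shared with a read-through gene, at 129, 116 and 113 CPM against 88.6, 94.2 and 87.6 CPM (-0.41 ± 0.09). These 4 passed in the fit without teriflunomide replicate 3. CTPS1, which makes CTP from UTP, was at 270, 264 and 281 CPM against 257, 236 and 268 CPM (-0.10 ± 0.10), and its groups overlapped. Over the 7 tested genes of UTP and CTP synthesis, 6 were lower and the median was -0.37. With teriflunomide alone against control it was -0.16, or -0.14 without teriflunomide replicate 3.

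Among 11 tested genes of pyrimidine salvage, uptake and breakdown, 7 had a lower and 4 a higher estimate, with a median of -0.20 that was -0.03 without combination replicate 2, -0.11 without combination replicate 1 and -0.13 without lurbinectedin replicate 3, and 1 passed without teriflunomide replicate 3: SLC29A1, the equilibrative nucleoside transporter, at 84.9, 84.8 and 97.9 CPM against 63.9, 64.1 and 75.5 CPM (-0.39 ± 0.14). Of 8 genes of deoxynucleotide supply, 6 were lower and 2 higher. DTYMK, thymidylate kinase, was the 1 that passed there, at 78.3, 75.0 and 73.3 CPM against 52.4, 52.5 and 60.6 CPM (-0.45 ± 0.19), and RRM2B, the p53-dependent subunit of ribonucleotide reductase, was at 234, 285 and 263 CPM against 348, 297 and 265 CPM with overlapping groups. Without teriflunomide replicate 3, 5.8% of all genes passed as lower, so 1 call in a list of 11 or 8 genes says little about the list. Purine synthesis genes were lower in 10 of 15, all 10 with no overlap, at a median of -0.24 that was -0.14 without combination replicate 3. ATIC, which closes the purine ring, was at 190, 175 and 187 CPM against 150, 151 and 150 CPM (-0.30 ± 0.08). GART was at 262, 249 and 258 CPM against 208, 212 and 223 CPM (-0.26 ± 0.08), and IMPDH2, the entry to guanine nucleotides, at 818, 723 and 781 CPM against 575, 614 and 640 CPM (-0.34 ± 0.11). All 3 passed without teriflunomide replicate 3. With teriflunomide alone against control the median of the 15 purine genes was -0.29, with or without that replicate.

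Glycolytic enzymes were lower in 14 of 17 (median -0.27), of which 9 passed without teriflunomide replicate 3, and 1 of the other 3 passed as higher. PGK1, which overlaps ATP7A, was at 422, 413 and 386 CPM against 312, 318 and 325 CPM (-0.35 ± 0.11). LDHA, lactate dehydrogenase A, was at 922, 872 and 852 CPM against 706, 794 and 665 CPM (-0.29 ± 0.09), and HK2, hexokinase 2, at 99.2, 90.5 and 99.0 CPM against 83.0, 79.7 and 77.7 CPM (-0.26 ± 0.08). With teriflunomide alone against control the glycolytic median was -0.44, or -0.28 without teriflunomide replicate 3. LDHA and HK2 had larger falls there than with lurbinectedin present, with estimates of -0.71 each. CA9, carbonic anhydrase 9, a surface enzyme known as a hypoxia marker, was at 14.2, 13.7 and 11.9 CPM against 8.25, 7.63 and 6.96 CPM (-0.80 ± 0.25) and passed in the 6-library fit (adjusted p = 0.039). Its exons overlap ARHGEF39 on the other strand, so the counts of CA9 are uncertain. The hypoxia response list that holds CA9 did not follow it: 8 of 12 genes were higher and 4 lower, with a median of 0.06 that was -0.09 with the length trend removed, and 1 passed as lower without teriflunomide replicate 3. Of all genes, 5.8% passed as lower there.

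PRDX4, a peroxiredoxin of the endoplasmic reticulum (chromosome X, 23664262 to 23686397, hg38), had the smallest p of the lower genes: 170, 161 and 164 CPM with lurbinectedin alone and 108, 113 and 111 CPM with the combination, or -0.58 ± 0.09, with an adjusted p of 0.145 in the 12-library edgeR fit, 0.039 in the 6-library fit and 0.00121 without teriflunomide replicate 3. TXN, thioredoxin, was at 176, 151 and 156 CPM against 120, 119 and 111 CPM (-0.46 ± 0.09). RPIA, ribose 5-phosphate isomerase, whose product supplies the ribose of nucleotides, was at 35.8, 34.8 and 35.6 CPM against 23.9, 26.8 and 24.0 CPM (-0.51 ± 0.10). RABEPK, a protein linked to endosome traffic, was at 36.1, 29.4 and 31.6 CPM against 18.7, 21.4 and 21.8 CPM (-0.65 ± 0.12). In all 4 the groups were far apart relative to their spread. The 16 listed targets of NRF2, the transcription factor of the antioxidant response, which hold none of these 4 genes, were higher in 5 and lower in 11, with a median of -0.10, and 1 passed as lower without teriflunomide replicate 3. That is near the share of all genes that passed as lower there, 5.8%.

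Genes of mitochondrial fission and fusion, the processes that split and join mitochondria, did not move one way. DNM1L, which encodes the fission GTPase DRP1, was at 174, 188 and 191 CPM with lurbinectedin alone and 223, 220 and 193 CPM with the combination (0.20 ± 0.13, adjusted p = 0.482 in the 12-library edgeR fit and 0.0741 without teriflunomide replicate 3). All combination libraries lay above the lurbinectedin libraries, replicate 3 only just, and the gene passed in none of those 4 fits. Of 15 fission genes 9 were higher and 6 lower, with a median of 0.10 that was 0.05 without combination replicate 1. SPIRE1, an actin nucleator, was at 4.02, 4.38 and 4.47 CPM against 12.8, 5.06 and 6.96 CPM (0.95 ± 0.25), a rise carried mostly by combination replicate 1. DNM2, dynamin 2, was at 35.1, 34.4 and 36.8 CPM against 47.9, 35.2 and 48.1 CPM (0.30 ± 0.13). MIEF1, which recruits DRP1 to mitochondria, was at 287, 238 and 264 CPM against 193, 224 and 187 CPM (-0.39 ± 0.13). These 3 passed without teriflunomide replicate 3, 2 as higher and 1 as lower, where 6.31% of all genes passed as higher and 5.8% as lower.

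In the fusion list 8 of 14 genes were lower and 6 higher, with a median of -0.06 that turned to 0.0054 when libraries were scaled by size alone and lay between -0.01 and -0.03 without any one of the combination libraries; 5 passed as lower and 1 as higher without teriflunomide replicate 3. The prohibitins, which form a scaffold of the inner membrane, were both lower: PHB1 at 241, 213 and 226 CPM against 154, 169 and 157 CPM (-0.50 ± 0.11), and PHB2 at 287, 246 and 259 CPM against 200, 206 and 217 CPM (-0.35 ± 0.13). STOML2, their partner in that membrane, was at 227, 184 and 192 CPM against 131, 142 and 153 CPM (-0.50 ± 0.18). PLD6, a mitochondrial phospholipase whose exons overlap other genes, was at 66.1, 60.4 and 61.6 CPM against 41.6, 42.2 and 42.1 CPM (-0.58 ± 0.14). The outer-membrane fusion GTPase MFN2 was at 252, 231 and 247 CPM against 195, 199 and 203 CPM (-0.29 ± 0.14). MIGA1, a mitoguardin, was the higher one, at 8.96, 9.27 and 9.89 CPM against 13.4, 12.3 and 11.2 CPM (0.39 ± 0.16). PHB1, PLD6 and STOML2 passed in the 6-library fit as well.

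Among the genes higher in the combination with the smallest p, ATP2B4, a calcium pump of the plasma membrane (chromosome 1, 203626787 to 203744081, hg38), was at 5.72, 6.29 and 6.25 CPM with lurbinectedin alone and 13.8, 8.6 and 11.4 CPM with the combination, a log2 fold change of 0.89 ± 0.16, with an adjusted p of 0.145 in the 12-library edgeR fit and 0.0491 in the 6-library fit. ADD3, a protein of the membrane skeleton, was at 9.06, 12.3 and 10.9 CPM against 24.1, 16.1 and 19.0 CPM (0.87 ± 0.16). For ITGAV, the integrin alpha V chain, the values were 39.6, 43.6 and 44.7 CPM against 79.9, 64.7 and 55.1 CPM (0.64 ± 0.12), and for RIMKLB, a glutamate-ligating enzyme, 39.2, 49.1 and 37.5 CPM against 72.3, 61.8 and 59.3 CPM (0.62 ± 0.13). Combination replicate 1 was the highest library in all 4 genes, and replicate 2 or 3 the lowest of the combination, still above every lurbinectedin library.

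Smaller p also named DNMT3A, a DNA methyltransferase (4.17, 4.69 and 5.31 CPM against 8.25, 6.83 and 8.14 CPM), RBPMS, an RNA-binding protein (3.25, 4.30 and 4.91 against 8.51, 6.79 and 7.47 CPM), and DENND5B, a regulator of Rab GTPases (3.15, 4.54 and 4.33 against 9.74, 5.90 and 7.85 CPM). CDYL, a chromatin corepressor, was at 6.2, 6.41 and 6.69 against 12.2, 9.15 and 9.28 CPM, and CDH11, a cadherin, at 5.77, 6.53 and 6.80 against 13.1, 9.36 and 9.70 CPM. The kinase gene NEK7 was at 7.75, 8.95 and 10.1 against 21.8, 14.1 and 12.5 CPM, CRISPLD1, a secreted protein, at 4.85, 5.63 and 7.01 against 12.1, 10.2 and 8.2 CPM, and C1RL, a serine protease, at 5.14, 5.98 and 6.69 against 10.2, 8.43 and 11 CPM. These 8 had log2 fold changes between 0.67 and 0.96, passed without teriflunomide replicate 3 and did not pass in the 6-library fit. The largest estimates were those of BTRC, a substrate receptor of a ubiquitin ligase (1.16 ± 0.26), CERS6, a ceramide synthase (1.08 ± 0.29), BAZ2B, a bromodomain protein (1.03 ± 0.26), FER, a tyrosine kinase (1.02 ± 0.22), and ZNF618 (0.98 ± 0.23). CERS6 was at 4.89, 6.10 and 6.14 CPM against 20.3, 7.25 and 8.81 CPM, so that replicate 1 carried most of its difference, and it did not pass without teriflunomide replicate 3 (adjusted p = 0.0744), though it did in DESeq2 (0.0132). BAZ2B, at 3.73, 4.85 and 3.60 CPM against 10.6, 7.17 and 7.15 CPM, passed in the 6-library fit (adjusted p = 0.0479).

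**Figure D3:**
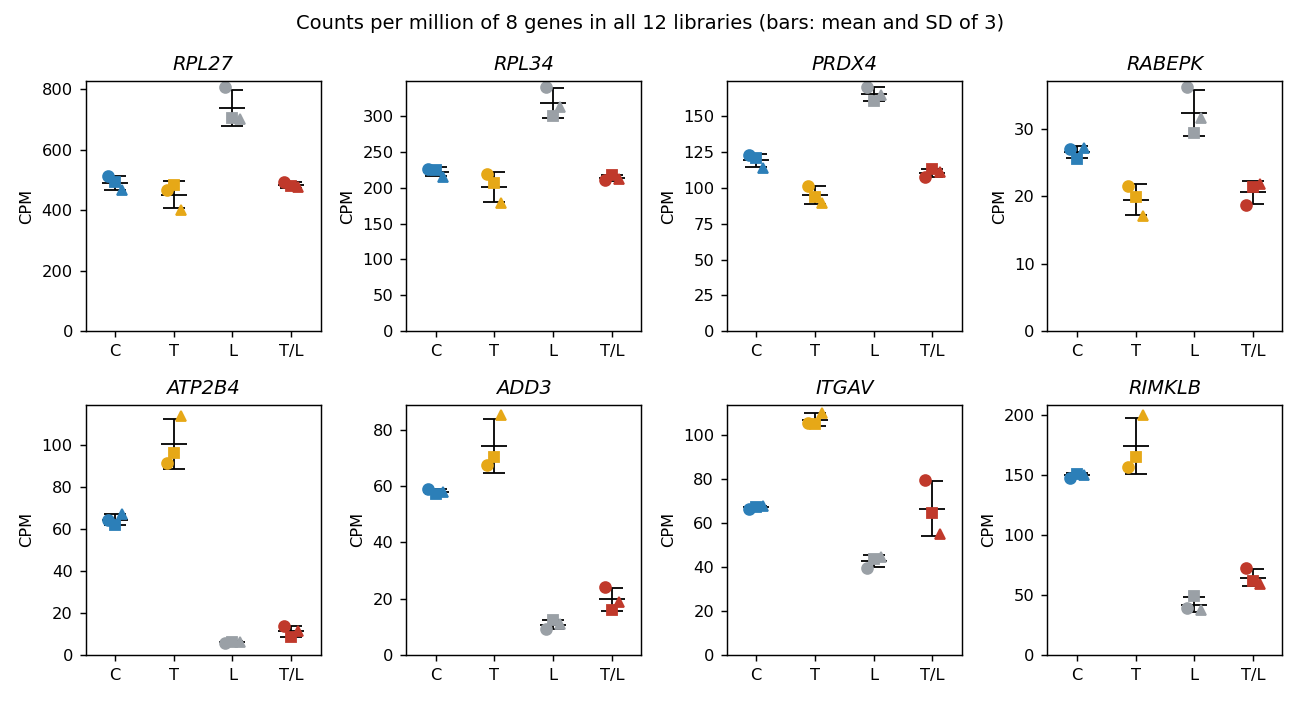
CPM of 4 lower and 4 higher genes in all 12 libraries; C is control, T teriflunomide, L lurbinectedin and T/L the combination, symbols give the replicate, and bars the mean and SD of 3 libraries. RPL27 and RPL34 lie near the control level in the combination, while ATP2B4 and ADD3 lie above lurbinectedin alone and far below control.

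All these higher genes were below control with lurbinectedin alone, in a comparison that shares the lurbinectedin libraries. ATP2B4 averaged 64.5 ± 2.71 CPM (SD, n = 3) in control, 6.09 ± 0.321 with lurbinectedin and 11.3 ± 2.58 with the combination, and FER 191 ± 10.8, 2.74 ± 0.578 and 5.59 ± 1.79 CPM. In both the combination lay much nearer to lurbinectedin alone than to control. In other genes the combination covered more of the distance to control than in ATP2B4 and FER. CRISPLD1 averaged 15.4 ± 0.479, 5.83 ± 1.1 and 10.2 ± 1.96 CPM, and C1RL 9.29 ± 0.682, 5.94 ± 0.777 and 9.86 ± 1.3 CPM. ITGAV, at 67.2 ± 0.82 CPM in control, 42.6 ± 2.68 with lurbinectedin and 66.5 ± 12.5 with the combination, was at the control level, as was C1RL.

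Fold change followed the length of the gene. Across 16651 nuclear genes, Spearman's rho between the log2 fold change and the genomic span, from first to last exon, was 0.354, and between fold change and exonic length 0.280. Genes share their libraries and are not independent replicates, so these are descriptions without a p. Genes were divided into 5 equal groups by span. The median log2 fold change stood at -0.09 for the shortest group (median span 2.02 kb) and at 0.27 for the longest (median span 146 kb). In the longest group 26.0% of genes had all combination libraries above all lurbinectedin libraries and 2.67% all below, whereas in the shortest group the shares were 4.26% and 16.0%. The share passing as higher without teriflunomide replicate 3 was 20.3% in the longest group and 0.721% in the shortest. Removing the trend with exonic length before the fit brought rho with exonic length to 0.015 and rho with span to 0.180, and left a median of 0.16 in the longest group by span. The ribosomal protein median was -0.36 after that step, against -0.38 before it.

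**Figure D4:**
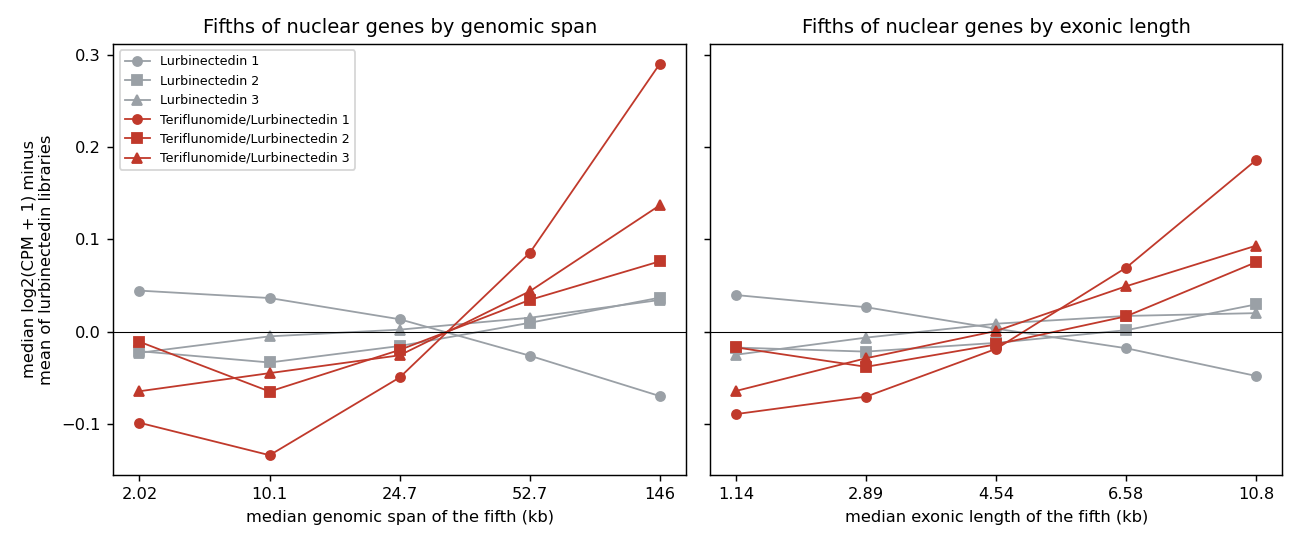
Median of log2(CPM + 1) minus the mean of the lurbinectedin libraries in 5 equal groups of nuclear genes by genomic span (left) and exonic length (right), per library; the horizontal positions are these groups, labelled with their median length in kb. All 3 combination libraries end above 0 in the longest group by span, at 0.29, 0.08 and 0.14.

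The size of the trend differed between libraries. In the longest group by span the medians were 0.29, 0.08 and 0.14 in combination replicates 1 to 3 and -0.07, 0.04 and 0.03 in lurbinectedin replicates 1 to 3, each taken against the mean of the lurbinectedin group. Per combination library, rho with span was 0.461, 0.151 and 0.299. Leaving out combination replicate 1 brought rho for the group means to 0.235, and leaving out replicate 2 brought it to 0.394. Lurbinectedin alone against control had medians of 0.69 in the shortest and -1.86 in the longest group, and teriflunomide alone against control -0.09 and 0.15. The mitochondrial share was highest in the library with the smallest trend, combination replicate 2, and its part in the trend was not tested.

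**Figure D5:**
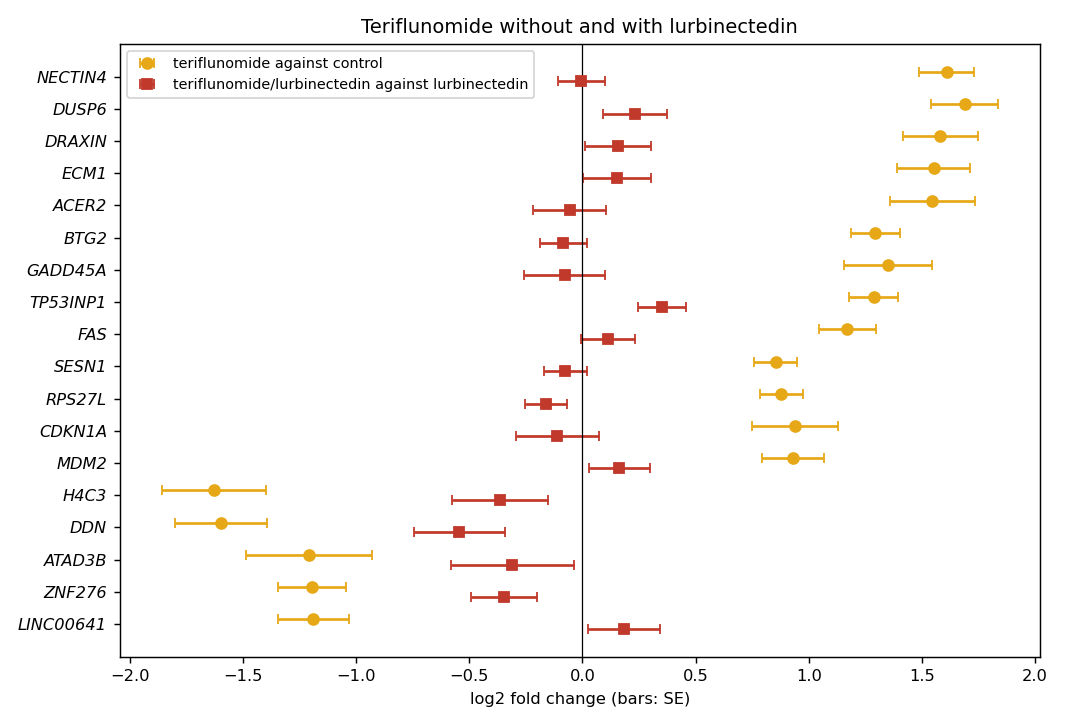
Log2 fold change with its SE of 18 genes for teriflunomide against control (yellow) and for the combination against lurbinectedin (red). The 13 genes above H4C3 rose with teriflunomide alone, by 0.85 to 1.69, and lie between -0.16 and 0.35 when lurbinectedin was present.

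The effect of teriflunomide with lurbinectedin was set beside its effect without it, in libraries that the 2 comparisons do not share. Teriflunomide alone against control called 1002 genes (6.01%), 647 higher and 355 lower. Of the 647, 505 had a higher estimate when lurbinectedin was present, with a median of 0.18 there against 0.78 alone; 176 had no overlap as higher and 19 as lower, and 99 passed as higher and 0 as lower without teriflunomide replicate 3. Of the 355, 285 had a lower estimate, with a median of -0.20 against -0.63 alone; 151 had no overlap as lower and 6 as higher, and 94 passed as lower and 0 as higher. Over all 16683 genes, 8892 had a higher estimate and the median was 0.03. Chosen without teriflunomide replicate 3, from the genes tested with 12 libraries, 939 genes were higher and 611 lower with teriflunomide alone. Their medians with lurbinectedin present were 0.11 and -0.17. Of the 939, 115 passed as higher and 17 as lower without that library, and of the 611, 165 passed as lower and 9 as higher. Spearman's rho between the 2 sets of log2 fold changes was 0.384 across genes, and 0.209 when teriflunomide replicate 3 was left out of the comparison with control. The count of 1002 moved to 1555 (9.11%) without teriflunomide replicate 3, to 248, 265 and 216 without control replicates 1, 2 and 3, and to 644, 629 and 622 without teriflunomide replicate 2 and lurbinectedin replicates 2 and 3.

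The genes of these counts, and those named next, were chosen for their change with teriflunomide alone, so a smaller estimate in another comparison follows in part from the choice; how large that part is was not tested. The interaction, the effect of teriflunomide with lurbinectedin minus its effect without, was called in 43 genes (0.258%), 37 negative and 6 positive. NECTIN4, a cell adhesion protein, averaged 2.42 ± 0.131 CPM (SD, n = 3) in control and 7.40 ± 0.43 with teriflunomide, but 73.1 ± 3.26 with lurbinectedin and 72.9 ± 6.57 with the combination. Its log2 fold change was 1.61 ± 0.12 alone and -0.00 ± 0.10 with lurbinectedin, and the interaction had an adjusted p of 0.0017 by edgeR. DUSP6, a phosphatase that limits ERK signalling, went from 5.73 ± 0.531 to 18.5 ± 1.68 CPM with teriflunomide alone, and was at 12.6, 13.1 and 14.4 CPM with lurbinectedin alone and 17.7, 16.8 and 12.9 CPM with the combination, with overlapping groups (interaction adjusted p = 0.0117). DRAXIN, ECM1 and ACER2, a neural guidance protein, an extracellular matrix protein and an alkaline ceramidase, rose by 1.58, 1.55 and 1.55 alone and had estimates of 0.16, 0.15 and -0.06 with lurbinectedin (interaction adjusted p = 0.0168 for each).

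Among the largest falls with teriflunomide alone, DDN (-1.60 ± 0.20) kept the largest estimate in the combination, at 34.6, 26.8 and 30.7 CPM against 21.0, 19.9 and 22.2 CPM (-0.54 ± 0.20), and passed without teriflunomide replicate 3. The zinc finger gene ZNF276, which overlaps another gene, was at 55.6, 53.6 and 54.0 CPM against 37.5, 38.9 and 51.9 CPM (-0.34 ± 0.15). H4C3, a histone gene, and ATAD3B, a mitochondrial ATPase with near-identical neighbours in the genome, had estimates of -0.37 ± 0.21 and -0.31 ± 0.27 with overlapping groups. LINC00641, a noncoding RNA, fell by 1.19 on the log2 scale alone and was at 0.18 ± 0.16 in the combination (interaction adjusted p = 0.0196).

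Targets of p53, the transcription factor that DNA damage and nucleotide shortage are known to stabilise, were set side by side in the same way. With teriflunomide alone 16 of 28 were called higher, with a median of 0.82, and with lurbinectedin alone 28 of 28, with a median of 2.47. Of all 16683 genes, teriflunomide alone called 647 higher and lurbinectedin alone 5999. In the combination against lurbinectedin 12 were higher and 16 lower, with a median of -0.05. The interaction was called in 6 of the 28, all negative, and in 20 without teriflunomide replicate 3. The 6, named after their values were seen where the rule did not name them, were BTG2, RPS27L, SESN1, TP53INP1, FAS and GADD45A. BTG2, an antiproliferative protein, was at 31.1 ± 1.69 CPM in control and 76.3 ± 4.25 with teriflunomide, and at 717, 660 and 683 CPM with lurbinectedin alone and 601, 753 and 590 CPM with the combination. GADD45A, a DNA damage response protein, was at 303, 268 and 270 CPM against 239, 352 and 205 CPM. In both the combination libraries lay on either side of the lurbinectedin group, with replicate 2 the highest.

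CDKN1A, the cell cycle inhibitor p21, was at 654, 572 and 632 CPM with lurbinectedin alone and 550, 579 and 592 CPM with the combination (-0.11 ± 0.18), and MDM2, the ubiquitin ligase of p53, at 1407, 1459 and 1351 CPM against 1713, 1794 and 1213 CPM (0.16 ± 0.14). TP53INP1, a p53-induced nuclear protein, was the 1 target that passed as higher without teriflunomide replicate 3 (adjusted p = 0.016), at 178, 204 and 178 CPM against 251, 247 and 216 CPM (0.35 ± 0.11), and 3 targets passed there as lower. Of all genes, 6.31% passed as higher and 5.8% as lower in that fit.

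How many genes the interaction called depended on single libraries. There were 616 (3.61%) without teriflunomide replicate 3, 66 without combination replicate 2, 24 without teriflunomide replicate 2, 12 without combination replicate 1, 6 without control replicate 1 or lurbinectedin replicate 2, and 2 without control replicate 2 or 3 or lurbinectedin replicate 1 or 3. Interaction calls were lower for 25 ribosomal protein genes in the fit without teriflunomide replicate 3 and for 1 with all 12 libraries, and for 0 genes of UTP and CTP synthesis in either. Of the glycolysis list, 2 genes, LDHA and HK2, had positive interaction calls without teriflunomide replicate 3 and 0 with all 12 libraries.

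Signalling and cell cycle lists held genes of both directions. Their calls without teriflunomide replicate 3 stand against 6.31% of all genes passing as higher and 5.8% as lower. Of 12 MAPK feedback genes, which ERK signalling is known to induce, 9 were higher and 3 lower (median 0.18), with 3 passing as higher and 1 as lower without teriflunomide replicate 3. The higher ones included ETV5, a transcription factor, at 43.3, 49.1 and 46.8 CPM against 64.1, 54.4 and 61.6 CPM (0.37 ± 0.10), and SPRY2, an inhibitor of receptor signalling, at 5.91, 5.63 and 6 CPM against 8.11, 8.09 and 6.76 CPM (0.39 ± 0.13). Its relative SPRY1 was the lower one, at 23.5, 22.2 and 23.3 CPM against 17.0, 18.2 and 16.9 CPM (-0.40 ± 0.12). Of 15 immediate early genes, 6 were higher and 9 lower, with a median of -0.08 that was -0.22 without combination replicate 2 and 0.02 and 0.03 without replicates 1 and 3; 2 passed as higher and 2 as lower without teriflunomide replicate 3. Of this list, EGR1, an immediate early transcription factor, was at 86.2, 96.9 and 95.0 CPM against 178, 142 and 112 CPM (0.64 ± 0.19), and KLF2 at 5.14, 5 and 5.89 CPM against 7.89, 7.63 and 7.27 CPM (0.51 ± 0.14). YAP1, a coactivator of the Hippo pathway, was at 60.2, 72.2 and 62.2 CPM against 128, 86.5 and 77.6 CPM (0.58 ± 0.16).

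Of 19 genes of G1 cyclins, E2F and RB, 11 were higher and 8 lower (median 0.03), with 2 passing as higher and 1 as lower without teriflunomide replicate 3. Of 28 DNA replication genes, 11 were higher and 17 lower (median -0.08), with 1 passing as higher and 5 as lower there. The shares of all genes in that fit were 6.31% higher and 5.8% lower. RB1, the retinoblastoma protein, was at 11.4, 15.6 and 14.2 CPM against 33.3, 20.3 and 16.5 CPM (0.76 ± 0.23), CDK6, a G1 kinase, at 2.62, 2.81 and 3.56 CPM against 7.57, 4.21 and 4.12 CPM (0.81 ± 0.23), and POLA1, the catalytic subunit of DNA polymerase alpha and the 1 higher call of the replication list, at 7.70, 10.2 and 11.2 CPM against 19.8, 12.2 and 13.5 CPM (0.64 ± 0.18). In these 3 and in YAP1 combination replicate 1 was the highest library by a wide margin, and all passed without teriflunomide replicate 3 but not in the 6-library fit.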

How the data were processed

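The members and gene lists were chosen with earlier results of these data known. The authors deposited raw counts per gene, 1 file of 60649 genes per library; per the submitters' processing notes fastp 0.23.2, STAR 2.7.9, Subread and featureCounts were used with hg38. Strand and multi-mapping settings are not given in the sources used here. Symbols matched 60507 identifiers.

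Genes passing filterByExpr (16683) were scaled by TMM and fitted with edgeR 4.0.16 (robust quasi-likelihood, 12 libraries, 1 mean per group) in R 4.3.3; the biological coefficient of variation was 14.5%. SE came from the F statistic, and p-values were adjusted by Benjamini-Hochberg over all genes. Fits with the 6 libraries, without single libraries, with DESeq2 1.42.0 and others were alternatives. On simulated counts for this comparison over 16683 genes, 28% of 1.5-fold and 83% of 2-fold changes were recovered. The simulation changed 200 genes of at least 1 CPM, gave all groups the same mean otherwise and held no outlying library. Its rates may therefore not hold for the real libraries.

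Named genes were the 12 higher and 12 lower with the smallest p, the 5 largest changes each way (symbol, at least 5 CPM, no overlap), pathway members, at most 4 per other list, and the 5 largest each way with teriflunomide alone. Of these, the unnamed gene ENSG00000270022 is not described.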

Additional observations from a re-analysis of the deposited data

Results flagged for a closer look

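Groups of 3 libraries are too small for a test of single outlying samples, so the results singled out here are those in which the effect of teriflunomide differed between spheroids with and without lurbinectedin, by edgeR's interaction term. In all, 43 genes were called. The interaction is the log2 fold change with lurbinectedin minus that without it. A negative value therefore means a smaller rise, a larger fall or a turn from rise to fall when lurbinectedin was present. Among the genes of the report it was -1.61 for NECTIN4, -1.60 for ACER2, -1.46 for DUSP6, -1.43 for DRAXIN and -1.40 for ECM1. For the p53 targets it was -1.43 for GADD45A, -1.38 for BTG2, -1.06 for FAS, -1.04 for RPS27L, -0.94 for TP53INP1 and -0.93 for SESN1. For LINC00641, which fell with teriflunomide alone, it was 1.37.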

How the results depend on the processing

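For the combination against lurbinectedin, 0 genes were called with all 12 libraries and also with DESeq2 size factors, library size alone, mitochondrially encoded genes left out, a filter at 1 CPM, no robust option, the exonic length trend removed, TREAT at 1.2-fold and an adjusted p under 0.1. It was 612 with no filter, 94 with 6 libraries, 584 with DESeq2 and, chosen after seeing the data, 1793 with 6 libraries less combination replicate 2 and 3640 without that library and teriflunomide replicate 3; without single libraries it was 0 to 2067. The interaction count of 43 became 6 with library size alone, 195 with no filter, 256 with DESeq2, 1839 without those 2 libraries and 2 to 616 without single libraries. For teriflunomide alone, 1002 became 265, 1800, 1890 and 2757 under the same settings and 216 to 1555 without single libraries. Whether replicate numbers pair the samples was not established. Correlations of same-numbered deviations were -0.18, -0.03 and 0.14, and those of differently numbered ones -0.21 to 0.21, too few libraries to decide it. With the replicate block the counts were 0, 8 and 415, and 953 with 6 libraries and the replicate block, also chosen after seeing the data. The mitochondrial share difference ranged from -2.02 to 3.91 percentage points without single libraries. With no filter, rho was 0.128 with span and 0.104 with exonic length. The median of mitochondrially encoded genes was -0.29 in the fits without combination replicate 2, and -0.29 to 0.47 without single libraries. With library size alone the fusion median was 0.0054 and the p53 median 0.016, and without single libraries the p53 median was -0.083 to 0.0023. Of 106 named genes, 3 changed sign. GADD45A was 0.0085 and ACER2 0.0021 with the length trend removed, and without single libraries -0.33 to 0.075 and -0.17 to 0.049. NECTIN4, near 0 throughout, was 0.0071 with DESeq2 size factors, 0.071 with library size alone, 0.011 with no filter, 0.0041 with 6 libraries, 0.00097 with 6 libraries and the replicate block, 0.053 with 6 libraries less combination replicate 2, 0.052 without those 2 libraries, 0.026 with the length trend removed, 0.0073 with DESeq2 and -0.079 to 0.052 without single libraries. The cause of these changes was not tested. With 3 libraries a group and this spread, small changes were often not detectable, so a count of 0 does not show that no gene differs.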

Other observations

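Some gene groups are not described above. Of 26 host genes of small nucleolar RNAs, whose introns carry guides for ribosomal RNA modification, 21 were lower in the combination, with a median log2 fold change of -0.28, 11 without overlap and 6 passing without teriflunomide replicate 3. Of 36 proteasome genes 32 were lower, with a median of -0.17 that was -0.10 without lurbinectedin replicate 1, and 11 of the 37 tested without teriflunomide replicate 3 passed there as lower. Long intergenic noncoding RNAs had a higher estimate in 163 of 266, with a median of 0.13 that was 0.08 without combination replicate 3. Of the 284 tested without teriflunomide replicate 3, 9 passed as higher and 0 as lower, a smaller share than the 6.31% of all genes that passed as higher there.

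Of 27 targets of ATF4, the transcription factor of the integrated stress response, 19 were lower and 8 higher. SLC7A5, a transporter of large neutral amino acids, was at 514, 407 and 465 CPM with lurbinectedin and 283, 327 and 282 CPM with the combination (-0.64 ± 0.19), passing in the 6-library fit (edgeR, adjusted p = 0.039). SHMT2, the mitochondrial serine hydroxymethyltransferase, was at 516, 451 and 483 CPM against 343, 344 and 404 CPM (-0.41 ± 0.18). Outside the ATF4 list, 18 of 20 aminoacyl-tRNA synthetase genes were lower, with a median of -0.13. Of these, KARS1, a lysyl-tRNA synthetase, was at 360, 305 and 331 CPM against 251, 272 and 258 CPM (-0.35 ± 0.10). In the list of endoplasmic reticulum stress 5 genes were higher and 11 lower, with a median of -0.08. Of that list, DNAJC3, a chaperone regulator, was higher, at 19.0, 23.3 and 22.9 CPM against 39.5, 29.1 and 26.4 CPM (0.54 ± 0.14).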
